A study of Mus musculus with 11 samples.

Results

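Interferons, the Janus kinases and STAT factors that relay cytokine signals, and the MHC class I pathway that many of these signals feed were followed through 39 genes of a Nanostring myeloid panel. They were chosen among the 754 genes of the table by symbol, as those that begin with Ifi, Ifn, Irf, Isg, Oas, Mx and a digit, Stat and a digit, Jak, Tyk2, Socs, Tap, Psmb, H2-K, H2-D1, H2-Q, H2-T or H2-M3, or are B2m. No symbol of the table began with Oas, Tyk2 or B2m. The RNA came from F4/80+CD11b+ peritoneal macrophages that were sorted from individual female C57BL/6 mice aged 6 to 8 weeks. Mice were either Rα+/+ (wild type) or RαTd/Td, in which exons 2 to 4 of Retnla, the gene for the secreted protein RELMα, were replaced by a tdTomato reporter in every cell. Mice of both genotypes received PBS or IL-4c, a long-acting complex of IL-4 with an anti-IL-4 antibody, into the peritoneum on days 0 and 2. Peritoneal cells were taken on day 4. The groups were PBS-treated Rα+/+ (mice 1 and 2), PBS-treated RαTd/Td (mice 3 and 4), IL-4c-treated Rα+/+ (mice 5, 6 and 7) and IL-4c-treated RαTd/Td (mice 9, 10, 11 and 12). The experiment was performed once. A further IL-4c-treated Rα+/+ mouse that the study set aside was not analysed here.

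Type I interferons act through the receptor chains Ifnar1 and Ifnar2, and interferon-γ through Ifngr1 and its partner chain. Receptor-bound Janus kinases then phosphorylate STAT factors, which carry the signal to the nucleus, Stat6 in the case of IL-4. IRF factors and STAT dimers bind short elements in the promoters of their targets, and SOCS proteins dampen the same receptors. Among the targets are the immunoproteasome subunits Psmb8 and Psmb9, which cut proteins into peptides, the transporter Tap1-Tap2 and its partner tapasin (Tapbp), which load these peptides, and the class I heavy chains, which display them to T cells and NK cells.

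All values below are normalized counts, scaled by the authors to 4 housekeeping genes, with low values set to a floor of 30. Of the 39 genes, 29 were above the floor in at least 1 mouse and 25 in all 11 mice. The genes called changed are those with an adjusted p of 0.05 or less from limma, fitted on log2(value + 1) over the 445 genes of the table with a mean above 30, and all 29 detected genes were among them. A log2 change of 1 is a doubling on that scale. Depth, as the summed counts behind the values, was 268858 to 574505 per mouse, and it was lowest in the PBS-treated RαTd/Td mice (268858 and 280353). The lowest measurable value was therefore 56.1 and 56.3 in those mice, against 30.5 to 48.2 in the others. Retnla was at the floor in all 6 RαTd/Td mice and at 4141 or above in all 5 Rα+/+ mice. Of the large peritoneal macrophage markers, 6 of 6 in the table (Gata6, Timd4, Adgre1, Itgam, Csf1r and Mertk) were detected. The 5 eosinophil markers were at the floor in every mouse. So were Gzma and Nkg7, the only 2 of 13 listed T or NK cell markers in the table. No Cd3 gene was in the table, so these values do not show that T cells were absent. Mouse 12 stood apart from its group, with 464 normalized counts of the monocyte receptor Ccr2, against 61.9, 102 and 139 in the other IL-4c-treated RαTd/Td mice. It was also the 1 IL-4c-treated mouse with the B cell marker Ms4a1 above the floor, at 63.1. With 2 to 4 mice in a group, the number of mice limits the precision of every comparison.

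The interferon ligands were not detected: Ifna1, Ifnb1 and Ifng were at the floor in all 11 mice. The other genes at the floor throughout were the effectors Ifit1bl1, Ifit1bl2 and Mx2, the inhibitors Socs1 and Socs2, and the class I chains H2-Q2 and H2-Q10. A value at the floor says only that the transcript was below the lowest measurable value of that lane. All 3 receptor chains, the 7 IRF factors, the 5 STAT factors followed, the kinase Jak3 and all 5 peptide-supply genes (Psmb8, Psmb9, Tap1, Tap2 and Tapbp) were detected, together with 5 of 7 class I chains, 2 of 5 interferon-induced effectors and 1 of 3 SOCS genes. Stat4, which relays IL-12, reached only 34.5 in mouse 2 and was at the floor in the other 10 mice.

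The promoters of several of these genes carry the letters of STAT or IRF elements. RefSeq promoters (GRCm38.p6, 250 bases before to 50 after each start site) were at hand for 26 of the 29 detected genes, all but H2-Q1, Mx1 and Tap2. The core of the gamma-activated site that STAT dimers bind, TTCNNNGAA on either strand, was present in 8 of the 26 (30.8%), namely H2-M3, Ifnar1, Ifnar2, Irf1, Irf2, Irf8, Psmb8 and Socs3. It was present in 9.55% of the 27025 genes with a promoter. The core of the interferon-stimulated response element, GAAANNGAA on either strand, was present in 5 of the 26 (19.2%), H2-T23, Irf2, Isg15, Jak3 and Stat4, and in 9.76% of all genes. The wider spacing that Stat6 prefers, with 4 bases between TTC and GAA, was present in 0 of the 26 and in 8.01% of all genes. The first 5 windows below carry the STAT core, in genes that were called in at least 1 comparison. The last 2 carry the IRF core, in a class I chain and in a detected effector with several such cores. Each runs 5′ to 3′ along the gene's strand and ends before the start site, with the matched core in capitals. A match describes these letters and is not a test of binding.
Irf1, chr11:53769894-53769962, plus strand: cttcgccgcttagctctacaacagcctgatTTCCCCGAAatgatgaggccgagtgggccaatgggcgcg
Irf8, chr8:120736157-120736243, plus strand: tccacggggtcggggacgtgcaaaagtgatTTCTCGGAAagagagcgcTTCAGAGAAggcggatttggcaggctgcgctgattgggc
Socs3, chr11:117969482-117969550, minus strand: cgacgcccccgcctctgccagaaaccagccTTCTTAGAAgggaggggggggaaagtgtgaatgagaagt
Psmb8, chr17:34198068-34198136, plus strand: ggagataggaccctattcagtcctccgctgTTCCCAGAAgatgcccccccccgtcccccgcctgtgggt
H2-M3, chr17:37269995-37270063, plus strand: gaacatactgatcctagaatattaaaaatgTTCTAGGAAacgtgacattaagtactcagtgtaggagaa
H2-T23, chr17:36032786-36032854, minus strand: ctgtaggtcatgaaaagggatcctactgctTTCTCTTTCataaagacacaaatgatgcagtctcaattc
Isg15, chr4:156200846-156200926, minus strand: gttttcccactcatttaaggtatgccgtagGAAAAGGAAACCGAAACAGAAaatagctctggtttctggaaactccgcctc
The cores begin 90 bases before the start site in Irf1, 154 in Socs3, 97 in Psmb8, 209 in H2-M3 and 123 in H2-T23. Irf8 holds 2 STAT cores, the first 171 bases before its start site, and Isg15 holds 3 overlapping IRF cores, the first 78 bases before its start site. The start sites of Psmb9 and Tap1 face away from each other on chromosome 17, 226 bases apart, so that both genes share a promoter stretch.

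To evaluate whether loss of RELMα changed this gene set in unstimulated macrophages, RαTd/Td mice were compared with Rα+/+ mice after PBS. Of the 29 genes, 9 were higher in RαTd/Td macrophages (31.0%, against 8.09% of all 445 genes) and 0 were lower (1.57% of all genes), also at an unadjusted p of 0.05 from limma or by the methods' t-test. The 9 were the class I chains H2-K1, H2-D1, H2-Q1 and H2-T23, the peptide-supply genes Psmb8, Psmb9 and Tapbp, the factor Stat3, and the antiviral GTPase Mx1. In the methods' t-test without adjustment, 5 of these 9 passed, and H2-K1, H2-D1, H2-T23 and Tapbp did not. That test added H2-M3, Irf1 and Tap1. The median difference over the 29 genes was 0.47 on the log2 scale, and over all tested genes it was 0.10. In bulk RNA, a change in the mix of sorted cells and a change in RNA per cell cannot be told apart.

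H2-K1 and H2-D1 encode the classical class I chains that present peptides to CD8 T cells. H2-K1 was 7042 and 4996 in PBS-treated Rα+/+ mice and 11718 and 13100.4 in PBS-treated RαTd/Td mice, a log2 difference of 1.06 ± 0.27 (SE, adjusted p = 0.044). H2-D1 was 8281 and 5977 against 12623 and 13405, a difference of 0.89 ± 0.20 (adjusted p = 0.034). The non-classical chains H2-Q1 and H2-T23 were higher as well. H2-Q1 was 223 and 189 against 398 and 424, which was 2.00-fold higher (adjusted p = 0.0056), and H2-T23, which encodes the Qa-1 chain seen by NK cell receptors, was 627 and 459 against 955 and 1070.4 (1.88-fold, adjusted p = 0.039). H2-M3, which presents formylated peptides, was 105 and 100.5 against 155 and 175, without passing the test (adjusted p = 0.14). For all 5 detected chains, both RαTd/Td mice lay above both Rα+/+ mice, as they did for genes of other roles such as Irf2, Irf5, Socs3 and Stat6. With 2 mice a group such an order is weak evidence, and its share over all genes was not counted.

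Among the genes that supply peptides, Psmb9 was 164 and 158 in PBS-treated Rα+/+ mice and 293 and 252 in PBS-treated RαTd/Td mice (1.68-fold, adjusted p = 0.039). Psmb8 differed less, with 452 and 472 against 647 and 631 (1.38-fold, adjusted p = 0.047). Tapbp, the bridge between the transporter and the class I chain, was 481 and 369.7 against 637 and 755 (1.64-fold, adjusted p = 0.046). Tap1, which shares its promoter stretch with Psmb9, was 199 and 241 against 434 and 383, a 1.85-fold difference in means of log2 values that missed the threshold (adjusted p = 0.079). Tap2, its partner in the transporter, had overlapping values of 159 and 112 against 146 and 169 (adjusted p = 0.57). Psme2, a proteasome activator subunit outside the 39 genes, was 878 and 844 against 1168 and 1136, a called log2 difference of 0.42 (adjusted p = 0.036) that was lost without mouse 3, 4 or 5 and with median centring.

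**Figure D1:**
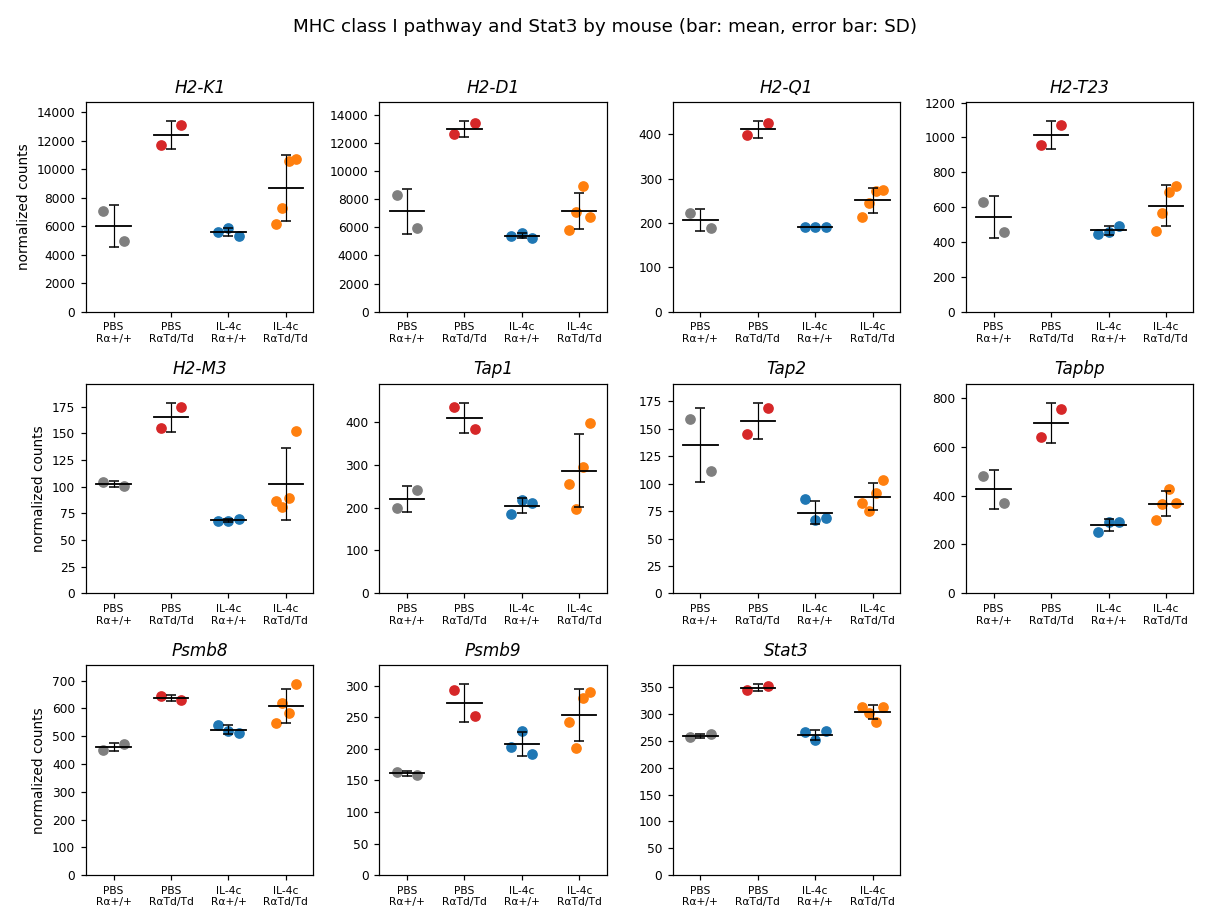
Normalized counts (y axes, linear from 0) of 5 class I chains, 5 peptide-supply genes and Stat3 in each mouse (points), by treatment and genotype (x axes), with the group mean (bar) and SD (error bar). The 2 PBS-treated RαTd/Td mice lie above the 2 PBS-treated Rα+/+ mice in every panel but Tap2, where the groups overlap. The share of all genes with this order was not counted.

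Stat3, which relays IL-6 and IL-10, was 257 and 262 in PBS-treated Rα+/+ mice and 344 and 353 in PBS-treated RαTd/Td mice (1.34-fold, adjusted p = 0.039), with closely spaced mice in both groups. Stat4, Stat5a, Stat5b and Stat6 did not pass the test, with log2 differences of -0.10 for Stat4, 0.07 for Stat5a, 0.12 for Stat5b and 0.17 for Stat6. Socs3, which Stat3 induces, was 122 and 159 against 234 and 214 (adjusted p = 0.13). Of the 7 IRF factors, 0 were called (3 at an unadjusted p of 0.05 from limma, and Irf1 by the methods' t-test). Irf1, which drives class I and immunoproteasome genes, came nearest, with 228 and 180.0 against 387 and 413 (1.97-fold, adjusted p = 0.066). Irf7, the amplifier of type I interferon, was 94.9 and 72.0 against 161 and 122 (adjusted p = 0.39). The receptor chains Ifnar1, Ifnar2 and Ifngr1 were not called either, with log2 differences of -0.07, 0.50 and 0.24.

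Mx1 was at the floor in both PBS-treated Rα+/+ mice and at 59.8 and 60.1 in the PBS-treated RαTd/Td mice. Against the lowest measurable values of the Rα+/+ mice this was at least 1.56-fold higher (adjusted p = 0.0057). The RαTd/Td values lay just above the lowest measurable value of their own lanes, 56.1 and 56.3. With a single floor of 56.3 for all mice the log2 difference was 0.09 (adjusted p = 0.46), so the call on Mx1 rested on where the floor was set. Isg15, the other detected effector, was at the floor in mouse 1, at 37.5 in mouse 2, at 72.9 in mouse 3 and at the floor in mouse 4, with no order between the genotypes.

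The steady-state calls depended on few mice. The count of 9 was 0 without mouse 4, 2 without mouse 3 or mouse 5, 3 without mouse 2 or mouse 7, 4 without mouse 10 and 5 without mouse 6, and where a single mouse was left in a PBS group, it was assumed to vary like the other groups. With each mouse centred on its median gene, which lowered the difference of H2-D1 from 0.89 to 0.74, H2-K1, H2-Q1, H2-T23 and Mx1 remained called (4 of 29, against 3.60% of all genes). With a fit on the 4 PBS-treated mice alone, 1 gene (Mx1) was called. Each of the 9 genes was higher in RαTd/Td mice in all of these settings, but they had been chosen as higher, so this is no further support. Leaving out an IL-4c-treated mouse or fitting the PBS-treated mice alone leaves their differences as they were and changes only the estimated spread. Of 2 B cell markers in the table Fcer2a was at the floor in every mouse, and Ms4a1 was 105 and 226 in PBS-treated Rα+/+ mice and 192 and 242 in PBS-treated RαTd/Td mice. Ccr2, the 1 of 5 small macrophage or dendritic cell markers that was detected, was 175 and 353 against 248.5 and 259. The part that other cells or the lower depth of the RαTd/Td lanes had in these differences was not tested.

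After IL-4c, 0 of the 29 genes were called between genotypes, in either direction, against 1.57% of all genes higher and 1.12% lower in RαTd/Td macrophages. At an unadjusted p of 0.05 or less limma gave 10 genes (34.5%, against 21.8% of all genes at that threshold). The methods' t-test gave 6, H2-Q1, Ifnar2, Jak3, Stat3, Stat6 and Tapbp, all higher in RαTd/Td mice, as were 14.6% of all genes by that test. The median difference over the 29 genes was 0.28, and over all genes it was 0.12. H2-Q1 was 191, 190.5 and 190.3 in IL-4c-treated Rα+/+ mice and 212, 246, 272 and 274 in IL-4c-treated RαTd/Td mice, a log2 difference of 0.39 with a 95% confidence interval from 0.14 to 0.64 (adjusted p = 0.10). The 2 groups did not overlap. H2-K1 was 5625, 5876 and 5304 against 6129, 7276, 10597 and 10719, a difference of 0.59 with an interval from 0.12 to 1.06 (adjusted p = 0.15). The RαTd/Td mice differed among themselves for H2-K1, with mice 11 and 12 well above mice 9 and 10. Jak3, the kinase paired with the common γ chain of the IL-4 receptor, was 38.9, 49.7 and 61.5 against 60.9, 78.5, 66.8 and 82.6 (difference 0.53, adjusted p = 0.13), and the groups overlapped. For Irf1 the values were 119, 141 and 111 against 93.3, 112, 170.3 and 169.8, a difference of 0.10 with an interval from -0.39 to 0.59.

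**Figure D2:**
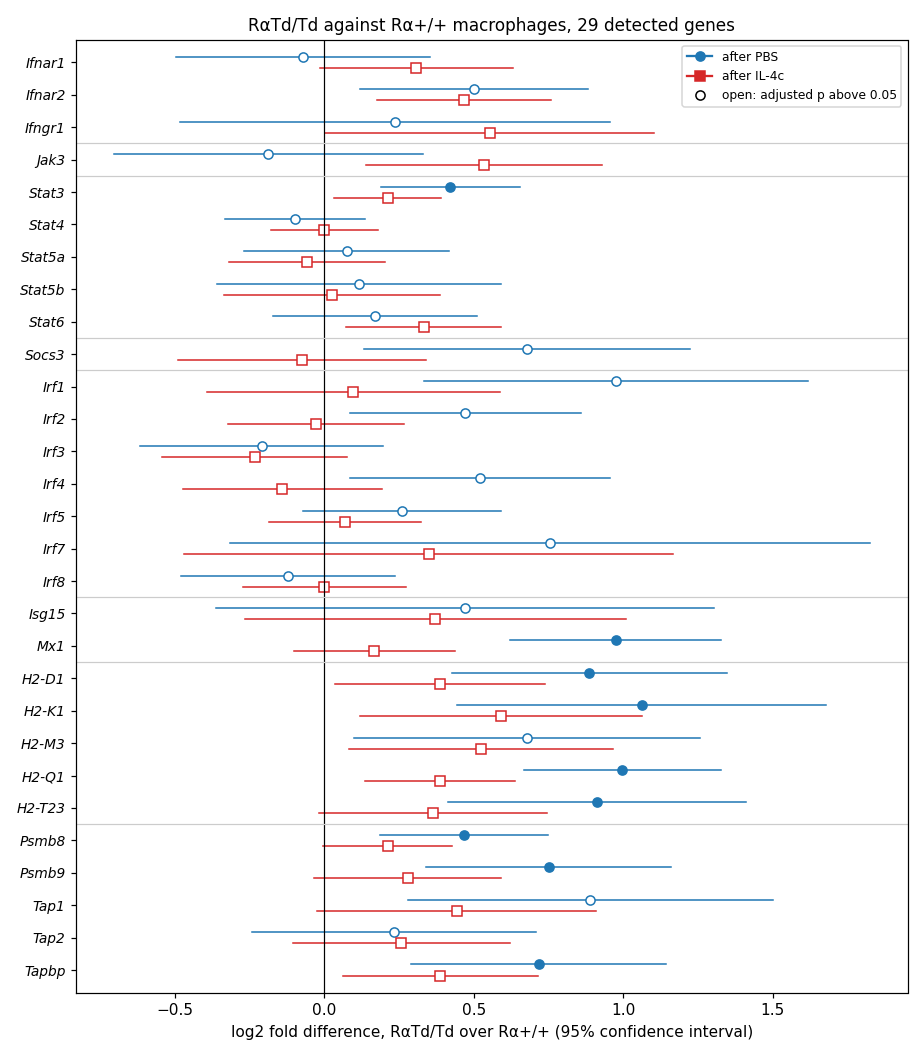
Log2 fold difference, RαTd/Td over Rα+/+ (x axis), for the 29 detected genes (y axis, ordered by role), after PBS (circles) and after IL-4c (squares), with 95% confidence intervals from limma (lines). Filled symbols mark an adjusted p of 0.05 or less, which 9 genes reached after PBS and 0 after IL-4c. The fitted value of Mx1 depends on the floor.

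Part of the gene set fell after IL-4c in both genotypes. In Rα+/+ macrophages 9 of the 29 genes fell (31.0%, against 32.4% of all genes) and 1 rose (3.45%, against 13.9% of all genes). In RαTd/Td macrophages 16 fell (55.2%, against 36.6% of all genes) and 0 rose (15.3% of all genes), also at an unadjusted p of 0.05 from limma or by the methods' t-test. In Rα+/+ mice the share of falling genes was thus close to that of the panel. The median change was -0.34 over the 29 genes and -0.18 over all genes in Rα+/+ mice, and -0.72 and -0.23 in RαTd/Td mice. The 2 comparisons share no mice, but the spread was estimated from all mice together, so their calls are not independent. The falls in RαTd/Td mice and the 9 genes higher after PBS rest on the same 2 PBS-treated RαTd/Td mice. H2-D1, H2-Q1, H2-T23, Tapbp and Mx1 were called in both, so these are not separate results. The difference in response, tested below, uses these mice as well. Ifnar1, Ifnar2, Irf1, Irf5, Irf8, Stat5b, Stat6, Tap2 and Tapbp fell in both, which is 90.0% of the genes called in Rα+/+ mice and 56.2% of those called in RαTd/Td mice. The same overlap over all genes was not counted, so these shares do not set the gene set apart from the panel.

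The receptor for type I interferon fell in both genotypes. Ifnar1 went from 508 and 445 after PBS to 196, 243 and 173 after IL-4c in Rα+/+ mice, a log2 change of -1.23 ± 0.17 (SE, adjusted p = 0.00035). In RαTd/Td mice it went from 454 and 451 to 219, 227, 269 and 291 (-0.85 ± 0.16, adjusted p = 0.0019). All 7 IL-4c-treated mice were thus below all 4 PBS-treated mice. Ifnar2, its signalling partner chain, fell by 0.55 in Rα+/+ mice (608 and 488 to 379, 392 and 343, adjusted p = 0.015) and by 0.59 in RαTd/Td mice (719 and 826 to 449, 474, 586 and 555, adjusted p = 0.0083). Ifngr1, the ligand-binding chain for interferon-γ, was at 637 and 505 against 362, 385 and 269 in Rα+/+ mice, with an adjusted p of 0.058. Mouse 12 was at 777, above both PBS-treated RαTd/Td mice (645 and 693), and the other IL-4c-treated RαTd/Td mice were between 358 and 487.

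Among the STAT factors, Stat6, which carries the IL-4 signal itself, fell in both genotypes. It was 584 and 483 after PBS and 319, 379.8 and 361 after IL-4c in Rα+/+ mice (-0.59 ± 0.14, adjusted p = 0.0061). Its values in RαTd/Td mice were 591 and 605 against 399, 445, 430.1 and 508 (-0.43 ± 0.13, adjusted p = 0.021). With each mouse centred on its median gene both Stat6 calls were lost (-0.29, adjusted p = 0.074, and -0.17, adjusted p = 0.24), and the RαTd/Td call was also lost with quantile normalization (-0.17) and without mouse 3 (adjusted p = 0.078) or mouse 4 (adjusted p = 0.10). Stat5b, which relays growth factor signals, went from 235 and 175 to 120.2, 123 and 149.7 in Rα+/+ mice (adjusted p = 0.021), and from 219 and 222 to 149, 137, 148 and 102 in RαTd/Td mice (adjusted p = 0.0084). Stat5a, its close relative, had log2 changes of 0.09 and -0.05 and was not called. Socs3 fell in RαTd/Td mice, from 234 and 214 to 144, 92.0, 92.7 and 119 (2.02-fold lower, adjusted p = 0.0029), and its change in Rα+/+ mice, from 122 and 159 to 137, 99.5 and 114, was not called (adjusted p = 0.37). Jak3 was not called in either genotype, with changes of -0.49 and 0.23.

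The IRF family split. Irf8, a factor that sets up monocyte and dendritic cell identity, was detected in all 4 PBS-treated mice (125 and 101 in Rα+/+, 87.8 and 122 in RαTd/Td) and was at the floor in all 7 IL-4c-treated mice. It was at least 3.20-fold lower in Rα+/+ mice (adjusted p = 8.611e-06) and at least 3.21-fold lower in RαTd/Td mice (adjusted p = 7.245e-06). Irf5, which promotes inflammatory cytokine genes, fell from 934 and 749 to 516, 546 and 568 in Rα+/+ mice (-0.62, adjusted p = 0.0042) and from 1017 and 988 to 499.9, 624, 557 and 608 in RαTd/Td mice (-0.81, adjusted p = 0.00065). Irf1 fell from 228 and 180.0 to 119, 141 and 111 in Rα+/+ mice (1.64-fold, adjusted p = 0.047). The fall in RαTd/Td mice was from 387 and 413 to 93.3, 112, 170.3 and 169.8 (3.02-fold, adjusted p = 0.00061). The Rα+/+ call on Irf1 was near the threshold and was lost without mouse 1, 2, 3, 4, 5, 6, 7 or 10, its log2 change then lying between -0.89 and -0.54. Irf2, a relative of Irf1 that can oppose it, fell in RαTd/Td mice from 969.8 and 1035 to 559.9, 654, 586 and 458 (1.79-fold, adjusted p = 0.0013) and was not called in Rα+/+ mice (-0.34, adjusted p = 0.10). Irf4, which acts downstream of IL-4 in alternative activation, was the 1 gene that rose. It went from 143 and 100.5 to 160.3, 206 and 165 in Rα+/+ mice (1.46-fold, adjusted p = 0.028), and the call was lost without mouse 2 or mouse 6 (0.30 to 0.80 on the log2 scale over the leave-outs). The Rα+/+ call on Irf4 was also lost with no filter, with only the groups compared, and in the methods' t-test with or without adjustment. Irf4 in RαTd/Td mice was 174 and 171 after PBS and between 147 and 185 after IL-4c. Irf3, the sensor-activated inducer of interferon-β, was between 97.5 and 151 in all 11 mice, with changes of 0.09 and 0.07.

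**Figure D3:**
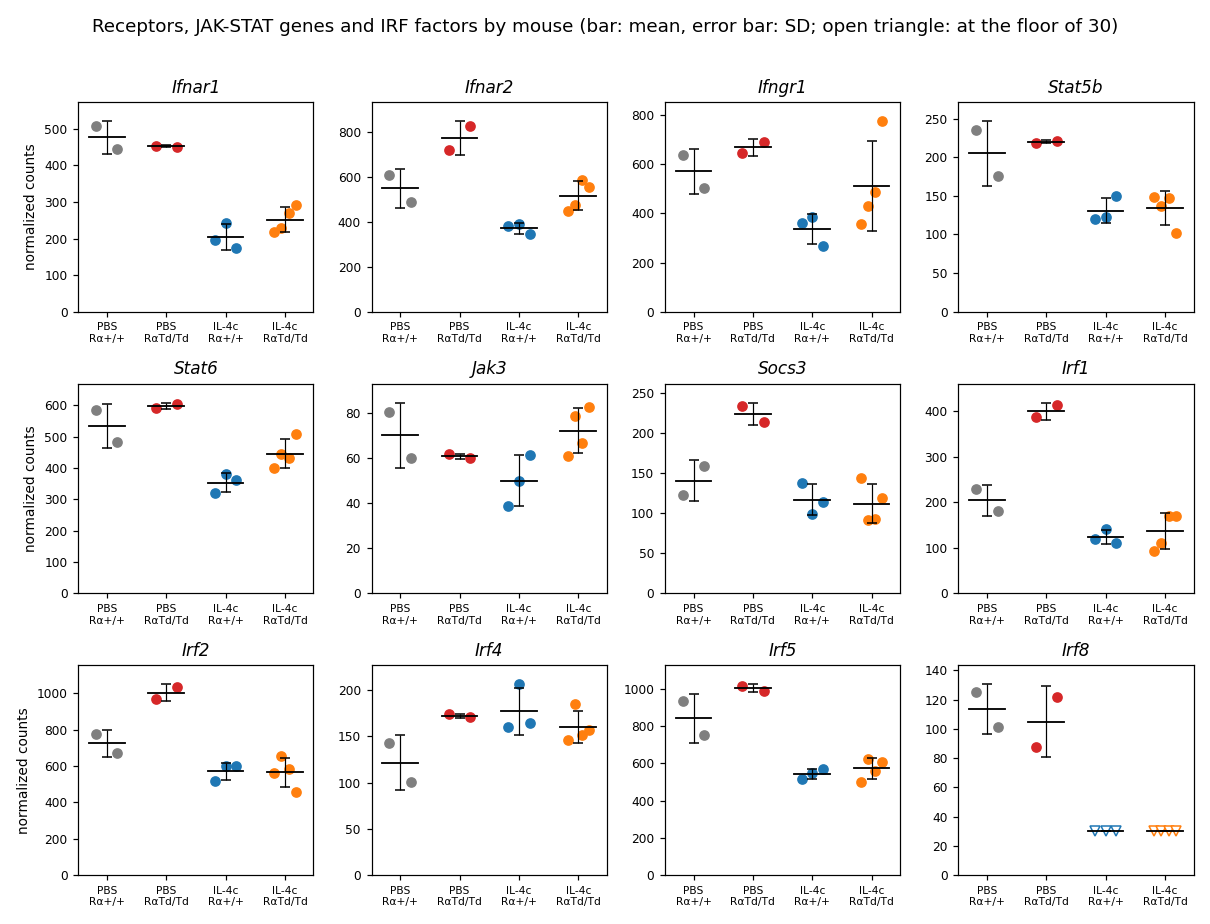
Normalized counts (y axes, linear from 0) of 3 receptor chains, 4 JAK-STAT genes and 5 IRF factors in each mouse, by treatment and genotype (x axes), with the group mean (bar) and SD (error bar); open triangles mark values at the floor of 30. Irf8 is at the floor in all 7 IL-4c-treated mice, and Ifnar1 is lower in these 7 than in all 4 PBS-treated mice.

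The class I chains and their peptide supply separated by gene. In RαTd/Td mice 4 of 5 chains fell after IL-4c, where 36.6% of all genes fell. H2-D1 went from 12623 and 13405 to 5832, 7119, 8939.9 and 6749.8 (1.84-fold lower, adjusted p = 0.0026) and H2-Q1 from 398 and 424 to 212, 246, 272 and 274 (1.64-fold lower, adjusted p = 0.0013). H2-T23 fell by 0.75 (adjusted p = 0.0090) and H2-M3 by 0.73 (adjusted p = 0.021), while H2-K1, at 11718 and 13100.4 against 6129 to 10719, had an adjusted p of 0.076. In Rα+/+ mice 0 of the 5 chains were called, with changes between -0.58 for H2-M3 and -0.08 for H2-K1 (limma, with H2-M3 at an unadjusted p of 0.035 and past it in the methods' t-test). Tap2 fell in both genotypes, from 159 and 112 to 85.9, 66.7 and 68.5 in Rα+/+ mice (1.81-fold, adjusted p = 0.0050) and from 146 and 169 to 82.8, 75.4, 91.6 and 103 in RαTd/Td mice (1.78-fold, adjusted p = 0.0041). Tapbp fell with it, by 0.60 in Rα+/+ mice (adjusted p = 0.017) and by 0.93 in RαTd/Td mice (adjusted p = 0.0013). Psmb8, Psmb9 and Tap1 were not called in either genotype. Psmb8 went from 452 and 472 to 542, 518 and 512 in Rα+/+ mice, with all 3 treated mice above both controls (adjusted p = 0.23), and Psmb9 from 164 and 158 to 203, 228 and 191 (adjusted p = 0.10). Mx1 was at the floor in all 5 Rα+/+ mice of either treatment. In RαTd/Td mice it went from 59.8 and 60.1 to the floor in mice 9 and 10, 42.0 in mouse 11 and 34.4 in mouse 12, a called fall (-0.81, adjusted p = 0.00097) that was -0.09 and not called with a single floor. Isg15 was detected in all 7 IL-4c-treated mice, between 46.9 and 89.5, and in 1 of 2 PBS-treated mice of each genotype, without being called (adjusted p = 0.15 in Rα+/+ and 0.19 in RαTd/Td mice). The PBS-treated mice at the floor, mice 1 and 4, could show no value below 48.2 and 56.3. Some of the IL-4c values lie below these limits, so the numbers of mice with detection cannot be compared between treatments. Irf7 was not called in either genotype (changes of -0.45 and -0.86).

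**Figure D4:**
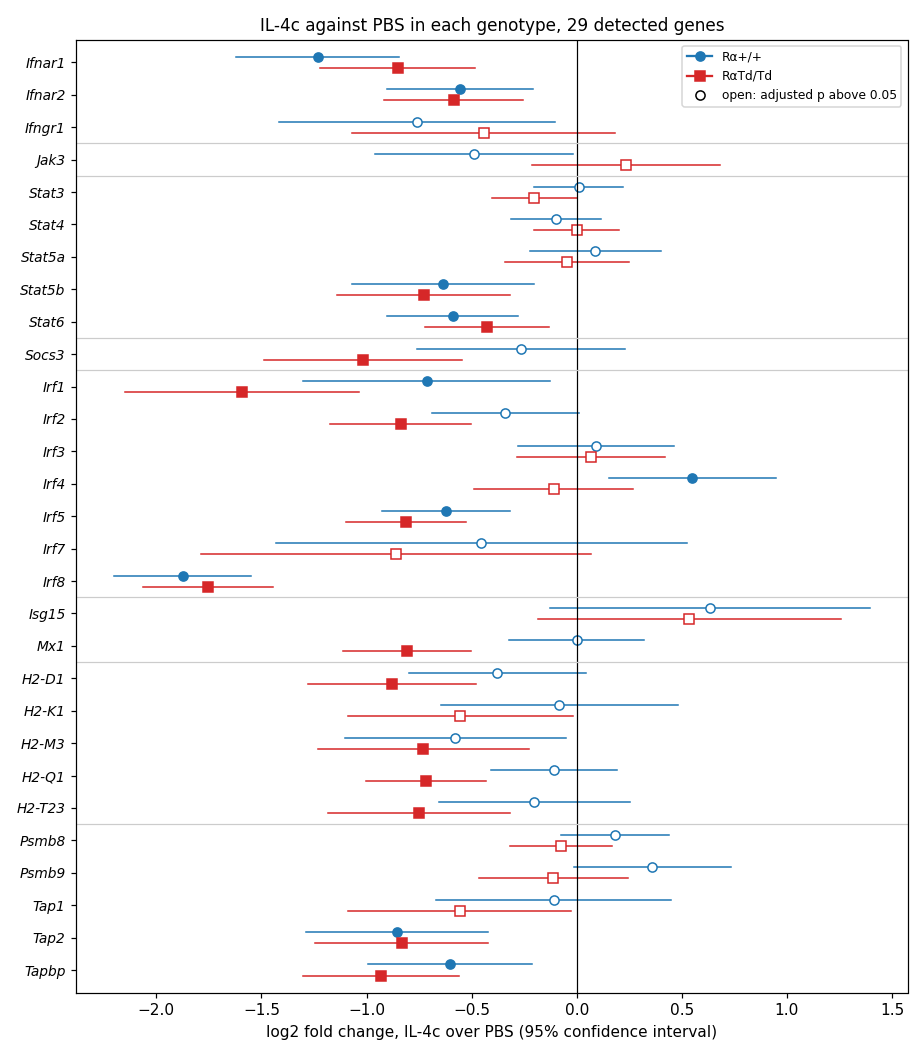
Log2 fold change, IL-4c over PBS (x axis), for the 29 detected genes (y axis, ordered by role), in Rα+/+ (circles) and RαTd/Td mice (squares), with 95% confidence intervals from limma (lines). Filled symbols mark an adjusted p of 0.05 or less, reached by 10 genes in Rα+/+ mice (Irf4 higher, 9 lower) and by 16 in RαTd/Td mice, all lower. The fitted values of Irf8 and Mx1 depend on the floor.

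The scale set how many genes were called. Centring each mouse on its median gene left 3 genes lower in Rα+/+ mice (Ifnar1, Irf8 and Tap2, against 20.7% of all genes). It left 5 higher there (Irf4, Isg15, Psmb8, Psmb9 and Stat5a, against 23.8% of all genes). In RαTd/Td mice 13 were lower (24.7% of all genes), with Ifnar2, Stat5b and Stat6 lost, and 1 was higher (Jak3, against 23.4% of all genes). The RαTd/Td count of 16 was 11 without mouse 4, which lost H2-M3, H2-T23, Ifnar2, Stat5b and Stat6, and 21 without mouse 12, which added H2-K1, Ifngr1, Irf7, Stat3 and Tap1. The Rα+/+ count of 9 was 5 without mouse 1, which lost Ifnar2, Irf1, Stat5b, Tap2 and Tapbp and added Stat4. Without mouse 12, 39.6% of all genes fell in RαTd/Td mice. Of the 6 large peritoneal macrophage markers, Timd4 (-1.48 in Rα+/+ and -1.61 in RαTd/Td mice), Csf1r (-0.97 and -0.98) and Mertk (-1.08 and -0.93) fell after IL-4c in both genotypes. Adgre1 rose in Rα+/+ mice (0.50), and Gata6 and Itgam were called in neither genotype. Some markers of other cells also fell with IL-4c. The B cell marker Ms4a1 was 105 to 242 in the 4 PBS-treated mice and at the floor in 6 of the 7 IL-4c-treated mice. The summed neutrophil or monocyte markers, 3 of 7 detected, were 334 to 629.8 against 151 or less. In the PBS-treated mice this sum was mostly Csf3r, at 251 to 555, which was 115 or less after IL-4c. S100a8 was 82.5 or less and was called lower in Rα+/+ mice alone, and S100a9 was at the floor in every mouse but mouse 9 (31.4). The defining neutrophil gene Ly6g was at the floor in every mouse. The part of these cells in the changes above was not tested.

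To ask whether the genotypes responded differently to IL-4c, the difference between the 2 responses was tested. Of the 29 genes 0 were called, against 2.02% of all genes. Without adjustment, 7 were at 0.05 or below in limma (24.1%, against 15.5% of all genes), namely H2-Q1, Irf1, Irf2, Irf4, Jak3, Mx1 and Socs3. The median difference was -0.21 over the 29 genes and 0.00 over all genes, where a negative value means a larger fall or smaller rise in RαTd/Td mice. Mx1 had the lowest p (-0.81, adjusted p = 0.057), and its value depends on the floor as above. H2-Q1 followed, with a change of -0.11 in Rα+/+ and -0.72 in RαTd/Td mice, a difference of -0.61 with a 95% confidence interval from -1.02 to -0.19 (adjusted p = 0.13). For Irf1 the difference was -0.88 with an interval from -1.69 to -0.07 (adjusted p = 0.25). That a gene such as Irf2 or Socs3 was called in RαTd/Td mice alone does therefore not show a different response. Of the 29 genes, 21 were called in at least 1 comparison, and 8 in none, namely Ifngr1, Irf3, Irf7, Isg15, Jak3, Stat4, Stat5a and Tap1. The matching share over all tested genes was not counted, so the 21 cannot be read as a trait of this set.

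The same receptors and outputs were read through further genes of the pathways that lie outside the 39. Of 19 listed JAK-STAT receptors and regulators, 7 were in the table and 6 detected. In both genotypes 4 of these fell after IL-4c (Csf3r, Il10ra, Il4ra and Il6ra) and 1 rose (Csf2ra, the GM-CSF receptor chain), where 32.4% and 36.6% of all genes fell and 13.9% and 15.3% rose in Rα+/+ and RαTd/Td mice. Csf3r is also 1 of the 3 detected neutrophil or monocyte markers, and the part of such cells in its fall was not tested. Il4ra, the receptor chain that binds IL-4, went from 314 and 299.97 to 197, 120.1 and 191 in Rα+/+ mice (-0.89, adjusted p = 0.014) and from 359 and 464 to 193, 198, 225 and 288 in RαTd/Td mice (-0.87, adjusted p = 0.011). Both Il4ra calls were lost with quantile normalization (adjusted p = 0.053 and 0.093 in limma). The Rα+/+ call was also lost with only the groups compared and in the methods' t-test with or without adjustment. Of 34 listed interferon-induced genes, 10 were in the table and 6 detected, while the chemokines Cxcl9, Cxcl10 and Cxcl11 and the deconjugase Usp18 were at the floor in every mouse. Of these 6, Fcgr1 and Tlr7 fell in both genotypes and Cd274 rose in RαTd/Td mice. Fcgr1, the high-affinity IgG receptor that interferon-γ induces, was 162 to 220.5 in the 4 PBS-treated mice and at the floor in 6 of the 7 IL-4c-treated mice. It was at least 5.38-fold lower in Rα+/+ mice (adjusted p = 0.00014). In RαTd/Td mice, with mouse 12 alone above the floor at 64.3, it was called as well (adjusted p = 0.00018), and its log2 change depends on the floor (-2.36 as deposited, -1.69 with a single floor). Tlr7, a sensor of single-stranded RNA, went from 351 and 256 to 121, 136 and 94.0 in Rα+/+ mice (-1.37, adjusted p = 0.0064) and from 306 and 445 to 93.3, 117, 165 and 199 in RαTd/Td mice (-1.42, adjusted p = 0.0037). Cd274, which encodes the inhibitory ligand PD-L1, rose in RαTd/Td mice from the floor in mouse 3 and 58.2 in mouse 4 to 123, 106, 92.7 and 120.5. The log2 change of 1.37 (adjusted p = 0.0037) depends on the floor, and was 0.93 and still called with a single floor. In Rα+/+ mice Cd274 was 59.5 and 42.0 against 52.7, 93.4 and 82.4 without being called. Of 17 further class I pathway genes, 2 were in the table, Psme2 and the chaperone gene Calr, and in RαTd/Td mice Calr rose (0.70, adjusted p = 0.010) and Psme2 fell from 1168 and 1136 to 825, 871, 847 and 838 (-0.45, adjusted p = 0.0020), a fall not called with median centring. In Rα+/+ mice neither was called. Leaving out 1 mouse ended the Rα+/+ calls on Tlr7 and Il6ra (mouse 1), Il4ra (mouse 1 or 2) and Csf2ra (mouse 2 or 5), and the RαTd/Td calls on Cd274 and Calr (mouse 3) and on Tlr7 and Il4ra (mouse 4). Between genotypes, Psme2 after PBS was the 1 gene called from the 3 lists.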

How the data were processed

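Values came from 11 mice, 1 lane each, in 4 groups taken from the labels. Sorted macrophages were lysed and hybridized to the Myeloid Innate Immunity v2 probe set (Nanostring), which reads barcoded probes without amplification. The deposited signal is linear: the authors scaled raw counts to Eef1g, Gusb, Oaz1 and Rpl19 with the vendor's software and set low values to 30. Within a tolerance of 0.1 counts, 100% of the values between the floor and 1000 were whole counts times 1 factor per mouse. The floor therefore lay at different normalized levels (30.5 to 56.3) and can shrink or enlarge changes of low genes. Control rows (14) were left out of tests.

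Genes with a mean above 30 (445 of 754) were log2-transformed after adding 1 and fitted in limma 3.58.1 (R 4.3.3), with 1 coefficient for each of the 4 groups over all 11 mice. Every adjusted p is limma's moderated test with Benjamini-Hochberg adjustment over the 445 genes within 1 of 5 comparisons, called at 0.05 or less. Fold values are 2 to the power of the log2 difference, and a fold against a group at the floor is a lower limit set on the lowest measurable values of its mice. The script was tested on simulated data. The 39 genes, their roles and the further pathway lists were chosen with earlier results of these data known. The symbol rule matched 40 genes, of which 1 stayed in every fit and is not reported here. Named are all 39 genes, those at the floor by name alone, and the listed pathway and marker genes. Alternatives were no filter, stricter filters, median centring, quantile normalization, 10 added in place of 1, a single floor, only the groups compared, a trended robust fit, the methods' t-test with and without adjustment, and leaving out each mouse. RefSeq promoters (GRCm38.p6) were searched on both strands.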

Additional observations from a re-analysis of the deposited data

Results flagged for a closer look

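In the 4 IL-4c-treated RαTd/Td mice, the group in which single outlying mice could be tested, mouse 12 stood apart for 2 of the genes detected above the floor. For H2-M3 it was at 153 against 80.6 to 89.5 in the other mice, a gap of 0.877 of the group's range, and for Irf7 at 169 against 47.5 to 66.7, a gap of 0.842. Both gaps were above Dixon's 95% critical value for 4 samples. Of 27 genes tested this way 2 passed it, and at this level chance alone gives about 1 in 20. The same mouse had the highest Ccr2 (464) and Ccl5 (94.1) of its group.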

How the results depend on the processing

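The called changes of the 39 genes and of the listed pathway genes were followed across the alternatives. Uncalled differences were followed for Irf1 and Tap1 after PBS and for Mx1 in the difference in response. Of the resulting 1211 values, 1032 kept their direction and side of the threshold, 174 were no longer called, 5 became called and 0 reversed. The 5 could come only from these uncalled differences, and the called changes were picked for a clear direction, so 0 reversals is no further support. After PBS, the count of 9 genes higher in RαTd/Td mice became 3 with no filter, 4 with median centring, 4 with quantile normalization, 1 with only the groups compared and 1 with the adjusted t-test, and 0 to 10 over the left-out mice. After IL-4c the genotype count of 0 became 6 with the unadjusted t-test, and 0 to 1 over the left-out mice. For IL-4c in Rα+/+ mice, 1 higher became 0 with no filter, 5 with centring, 6 with quantile normalization, 2 with only the groups compared, 2 with the t-test, 0 with its adjusted form and 0 to 2 over the left-out mice, and 9 lower became 3 with centring, 5 with quantile normalization, 4 with the adjusted t-test and 5 to 12 over the left-out mice. For IL-4c in RαTd/Td mice, 0 higher became 1 with centring, 3 with quantile normalization and 0 to 1 over the left-out mice, and 16 lower ranged from 11 to 21. The difference in response, with 0 lower, gave 1 with quantile normalization (H2-Q1) and 0 to 1 over the left-out mice (Irf4 without mouse 1, Mx1 without mouse 11). The 2 genes higher in Rα+/+ mice with only the groups compared, or with the t-test, were Psmb8 and Psmb9, without Irf4. Between genotypes after PBS, the unadjusted t-test gave 8 genes higher in RαTd/Td mice, of which 5 were among the 9. The shares of all genes called moved too. Those higher in RαTd/Td mice after PBS were 1.72% with no filter, 3.60% with centring, 3.37% with quantile normalization and 0.225% with only the groups compared. With quantile normalization 23.4% of all genes rose and 24.0% fell with IL-4c in Rα+/+ mice, and 20.0% and 24.5% in RαTd/Td mice. Fewer tested genes or mice enter by construction in the filter and leave-out settings, and the cause of the other moves was not tested. Leaving out a mouse of a group not compared, or fitting only the groups compared, leaves a difference as it is, so its direction cannot reverse there. No paired analysis was possible because the groups share no mouse numbers.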
